A study of Homo sapiens with 6 samples.

Results

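MDA-MB-231 is a long-established cell line from a human triple-negative breast cancer, and its baseline state was read from its 2 control clones, the samples whose titles carry the word control. They were 2 of the 6 arrays of the series. Each control clone carried a control short hairpin RNA (shRNA) and was an independent clone measured once on an Affymetrix Human Gene ST array. The other 4 arrays came from 2 clones with shRNA 162 and 2 clones with shRNA 159, both directed at TIP-1, a small PDZ-domain protein encoded by TAX1BP3. All 6 cultures shared the parental line, growth in serum-containing RPMI medium, a fresh trypsinisation and reseeding, and an overnight culture before RNA was taken. A shRNA-carrying line selected as a clone need not equal the parental population, and an untransduced culture was not analysed here.

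MDA-MB-231 cells are of epithelial origin but grow as spindle-shaped, invasive cells. As background, the line is counted among the claudin-low breast cancer lines, a class defined by low transcripts of tight-junction claudins and E-cadherin together with mesenchymal transcripts such as vimentin. Triple-negative means that estrogen receptor, progesterone receptor and amplified HER2 are lacking. The genes of interest were therefore lineage markers, junction and mesenchymal genes, receptors and their ligands, cytokines and enzymes of metabolism.

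Of 33297 rows in the deposited table, the 21214 rows with a gene annotation were ranked by the mean log2 signal of both control clones. They covered 18417 genes with a row of their own, and a gene with several such rows entered by its brightest one. The bright band held the highest 10% of annotated rows, at 10.54 or above. Near background was set from 360 rows of olfactory receptor genes, which are little used outside the nose: the limit, 7.18, is their 90th percentile. Their lowest row had a mean of 3.40, their median was 6.31 and their highest row had a mean of 7.89. By these limits 1743 genes were bright (9.46%), 10321 lay in the middle (56.0%) and 6353 were near background (34.5%). In all, 9164 genes (49.8%) exceeded every olfactory receptor row. Among the bright genes, 1702 encode proteins and 16 are small nucleolar RNAs.

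**Figure D1:**
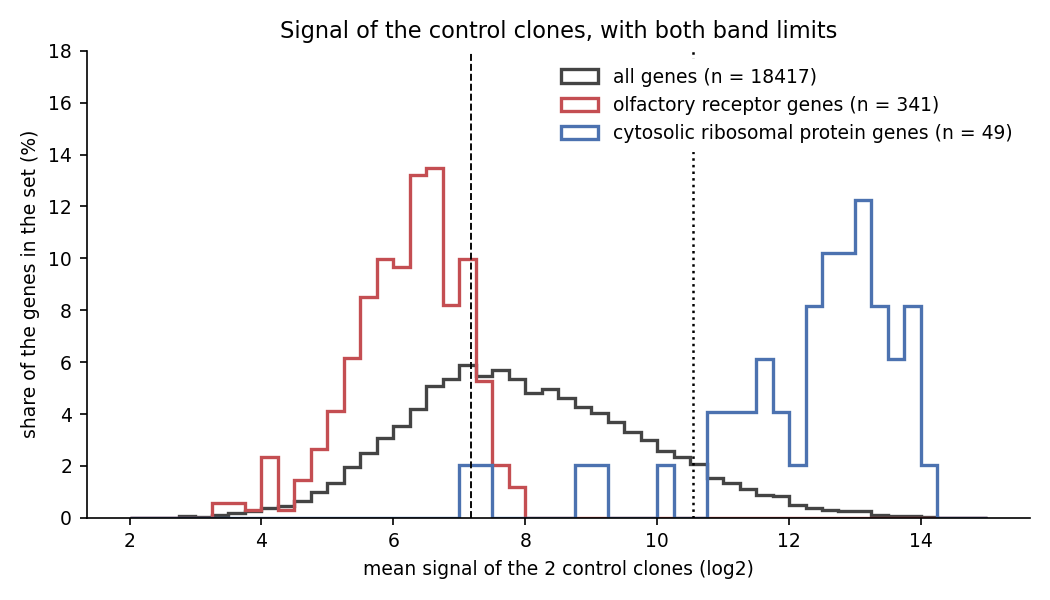
Distribution of the mean signal of both control clones (horizontal axis, log2) as the share of each gene set (vertical axis, percent). The dashed line marks the near-background limit of 7.18 and the dotted line the bright limit of 10.54. Olfactory receptor genes lie at the left of all genes and cytosolic ribosomal protein genes at the right, with 44 of 49 of the latter in the bright band.

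Signals of different probe sets depend on their probes as well as on the transcript, so the bands order genes only coarsely, and a signal near background does not separate an absent transcript from a rare one. Ribosomal protein genes give a scale for this limit. RPL22 read 7.17 and 7.22 and RPS29 read 7.29 and 7.35 in control clones 1 and 2, while 44 of the 49 measured members of that family were bright. Both were picked with their values in view. In bulk RNA, fewer cells with a transcript and less of it per cell cannot be told apart. Over all genes, 769 had several rows and 143 of them had rows at least 2 log2 units apart. Each value below is a log2 signal, and paired values are control clone 1 and control clone 2 in that order.

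The control clones gave nearly the same ranking. Across the 18417 genes, which are not independent replicates, Pearson's r between the clones was 0.997 and Spearman's rho was 0.997. Both clones placed 17781 genes (96.5%) in the same band by their own signal. The median absolute difference between the clones was 0.054 among bright genes, 0.080 in the middle band and 0.111 near background. A difference of 0.5 or more was found for 1 bright gene, 16 middle genes and 58 near-background genes, and no gene reached 1. The bright one was SNRPG, a core spliceosomal protein gene, at 11.05 and 10.37. The largest difference in the middle band was that of HCLS1, which encodes a cortactin-like protein of blood cells, at 7.17 and 7.87. Both genes were picked with their values in view. Of the 1089 measured genes in the 31 lists described below, none differed by 0.5 or more between the clones. With 2 arrays in the group no test between the clones was possible, and both values stand in for an error.

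**Figure D2:**
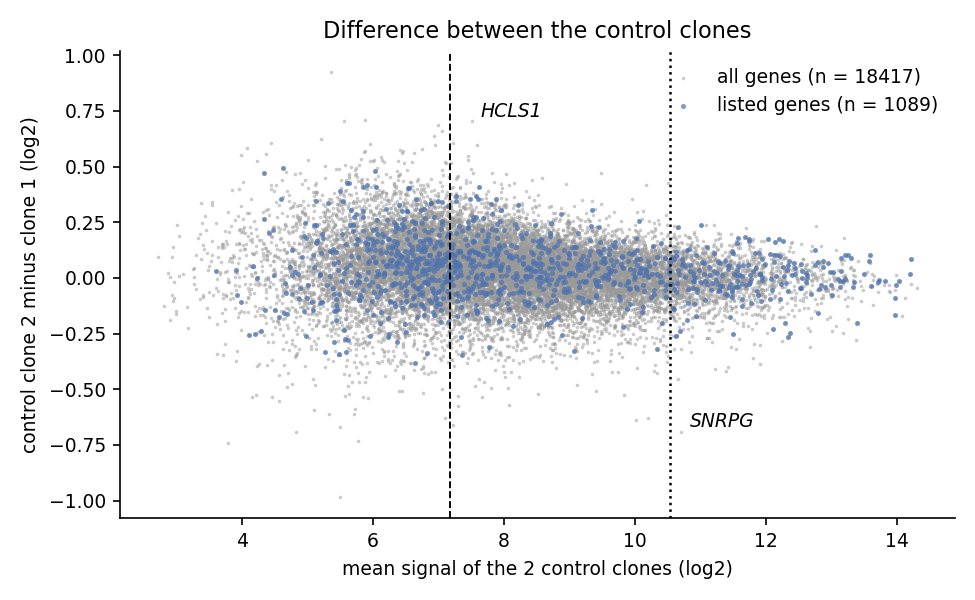
Control clone 2 minus control clone 1 (vertical axis, log2) against the mean of both clones (horizontal axis, log2), 1 point per gene, with listed genes in blue and the band limits as vertical lines. The scatter narrows from the near-background side, with a median absolute difference of 0.111, to the bright side, with 0.054, and all listed genes stay within 0.5.

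Ubiquitous transcripts of chromatin, protein synthesis, the cytoskeleton and glycolysis led the ranking. PTMA, the acidic chromatin protein prothymosin alpha, was first at 14.33 and 14.29, although another of its 6 rows had a mean of 7.35. GAPDH of glycolysis followed at 14.17 and 14.26. The linker histone gene H1-4 read 14.23 and 14.20, and the core histone gene H2BC14, in place 20, read 13.75 and 13.68. The chaperone HSPA8 read 14.17 and 14.08. Actins and tubulins were represented by ACTG1 (14.00 and 13.95), ACTB (13.90 and 13.87), TUBB4B (13.92 and 13.85) and TUBB (13.83 and 13.79). TMSB10, a thymosin that binds actin monomers, stood at 13.98 and 14.00, and the translation elongation factor EEF1A1 at 13.92 and 13.86. FAF2, a factor of protein quality control, stood at 14.17 and 14.00 on its brightest row, and its other row had a mean of 11.40. Of the 20 brightest protein-coding genes, 7 encode ribosomal proteins, among them RPS28 (14.04 and 14.03) and RPL18 (14.01 and 13.98). The fourth gene of the ranking was MT2A, a metallothionein that binds zinc and copper, at 14.20 and 14.22.

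Promoter windows from RefSeq (GRCh38.p14, 250 bases before to 50 bases after a gene's start) were found for 14239 of the 18417 genes. Their CpG content differed by band. The median ratio of observed to expected CpG was 0.880 for bright, 0.825 for middle and 0.408 for near-background genes, and the median GC content was 64.7%, 65.7% and 55.0%. Each motif was searched on both strands, and a match is only a run of letters, not a bound site. The ETS-type motif CCGGAAG was present in 22.7% of bright, 17.8% of middle and 6.19% of near-background promoters, against 10.7% of all 27305 promoters. That full set, also meant by all promoters below, includes many genes without a row of their own here. Its shares are therefore not those of the ranked genes. It was found in 15 of 42 ribosomal protein promoters (35.7%). The TATA-type motif TATAAA went the other way, with 7.31% of bright, 5.79% of middle and 15.3% of near-background promoters, against 12.0% of all.

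The promoters of RPL18 (chr19:48619129-48619428, minus strand) and MT2A (chr16:56608334-56608633, plus strand) are shown because both genes stand among the 20 brightest and differ in their motifs. They were chosen after their matches were seen. Capitals in RPL18 mark its single CCGGAAG match. Of other ribosomal protein genes among the 20 brightest, RPLP2 had 1 match, and RPS28, RPS13 and RPS3 had 0. Capitals in MT2A mark 8 matches to the core of the metal response element, TGCGCNC or TGCACNC, which are 2 forms of 1 core that never start at the same base of a strand. TGCGCNC occurs in 19.97% and TGCACNC in 11.9% of all promoters. The sequences run 5′ to 3′ on the strand of the gene.
RPL18: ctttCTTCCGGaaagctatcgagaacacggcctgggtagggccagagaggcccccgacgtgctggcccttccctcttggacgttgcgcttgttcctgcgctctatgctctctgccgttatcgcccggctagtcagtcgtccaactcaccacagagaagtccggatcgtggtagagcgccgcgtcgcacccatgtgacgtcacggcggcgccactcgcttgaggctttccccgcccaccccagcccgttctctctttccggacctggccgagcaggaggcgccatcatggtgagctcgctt
MT2A: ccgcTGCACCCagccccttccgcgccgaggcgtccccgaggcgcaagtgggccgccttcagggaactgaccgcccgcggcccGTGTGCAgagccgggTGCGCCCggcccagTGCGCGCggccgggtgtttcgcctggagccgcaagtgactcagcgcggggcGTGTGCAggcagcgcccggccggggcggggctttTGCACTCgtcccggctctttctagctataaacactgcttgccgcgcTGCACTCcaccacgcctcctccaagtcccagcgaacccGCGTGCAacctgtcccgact

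Luminal genes were found in all 3 bands. Of 23 measured luminal genes, 4 were bright (17.4%) and 10 near background (43.5%), against 9.46% and 34.5% of all genes. Their median signal was 7.53 against 7.89 for all annotated rows. KRT18 and KRT8, the paired keratins of simple epithelium, read 12.32 and 12.38, and 12.40 and 12.20. KRT7 read 11.51 and 11.52. KRT19, a further luminal keratin, named after its values were seen, lay in the middle band at 7.39 and 7.76. XBP1, a transcription factor of the secretory pathway, read 10.55 and 10.78, above the bright limit in both clones. ESR1, the estrogen receptor alpha gene, read 6.23 and 6.56. PGR, the progesterone receptor gene and a target of the estrogen receptor, read 6.05 and 6.05. Both lay near background in each clone. ERBB2, which encodes HER2, read 8.04 and 8.19, above every olfactory receptor row and below the bright limit. Further near-background luminal genes were ELF5 (6.82 and 7.17), TFF3 (7.12 and 7.11) and AGR2 (5.12 and 5.01).

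Basal markers were split as well. Of 21 measured basal and myoepithelial genes, 3 were bright (14.3%) and 6 near background (28.6%), against 9.46% and 34.5% of all genes. The bright ones were ACTG2, a smooth-muscle actin (11.93 and 11.85), ITGA6, an integrin that binds laminin (11.42 and 11.35), and SFN, an epithelial 14-3-3 protein (10.68 and 10.76). EGFR, the epidermal growth factor receptor, read 10.21 and 10.35, and the transcription factor SOX9 10.07 and 10.11, both just under the bright limit. KRT14 read 8.40 and 8.43, whereas its usual partner KRT5 read 7.04 and 6.92, near background. KRT15, TRIM29, CDH3 and ID4 were near background too, with means from 6.38 to 7.03. Over all 44 measured keratins, KRT18, KRT8 and KRT7 were the 3 bright ones (6.82%) and 26 were near background (59.1%).

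Genes of the epithelial junction and polarity list were near background about as often as all genes. Besides junction genes, this list holds epithelial transcription factors such as GRHL2 and ELF3 and proteases such as ST14 and PRSS8. Of 35 measured junction and polarity genes, 1 was bright (2.86%) and 13 were near background (37.1%), against 9.46% and 34.5% of all genes. CDH1, which encodes E-cadherin, read 6.34 and 6.40, and EPCAM, an epithelial adhesion protein, 7.01 and 7.09. CLDN1 (6.40 and 6.27), MARVELD2 (5.96 and 6.09) and MARVELD3 (6.98 and 6.91) of the tight junction were near background. The claudins by which the claudin-low class is named were not: CLDN3 read 8.57 and 8.47, CLDN7 8.41 and 8.48, and CLDN4 7.96 and 7.90. Each was above every olfactory receptor row in the mean, though CLDN4 lay close to the highest of them, at 7.89. Of 62 taste receptor, keratin-associated protein and defensin genes, a second reference described below, 6 exceeded every olfactory receptor row too. The highest of these had a mean of 9.47, above all 3 claudins. Among all 21 measured claudins 0 were bright and 11 were near background (52.4%), and the highest was CLDN12 at 9.75 and 9.84. The desmosomal cadherin DSG2 was the bright one, at 10.65 and 10.52, with clone 2 just under the limit. TJP1 (10.17 and 10.11), PERP (9.94 and 10.19), PKP2 (9.58 and 9.58) and SPINT2 (9.12 and 9.18) followed. Signals in this list thus ran from 5.98 to 10.58.

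As background, SNAI1, SNAI2 and ZEB1 encode repressors that bind E-box sequences in epithelial promoters. The E-box CAGGTG was present in 10 of the 22 junction and polarity gene promoters that were found (45.5%). It was present in 3 of 31 mesenchymal gene promoters (9.68%) and in 20.6% of all promoters. No promoter window was found for CDH1. Matches occurred in every band: in bright DSG2, in TJP1 and DSP of the middle band, and in ELF3 and CDS1 near background. The near-background genes CLDN1, MARVELD2, GRHL1 and EHF had none. A relation between matches and signal was not tested. CRB3, a polarity protein gene of the middle band at 7.86 and 7.97, and RAB25, a gene of epithelial vesicle traffic near background at 6.30 and 6.40, are shown for their 5 and 2 matches, which are in capitals. They were chosen after their matches were seen. CRB3 lies at chr19:6464021-6464320, plus strand, and RAB25 at chr1:156060910-156061209, plus strand.
CRB3: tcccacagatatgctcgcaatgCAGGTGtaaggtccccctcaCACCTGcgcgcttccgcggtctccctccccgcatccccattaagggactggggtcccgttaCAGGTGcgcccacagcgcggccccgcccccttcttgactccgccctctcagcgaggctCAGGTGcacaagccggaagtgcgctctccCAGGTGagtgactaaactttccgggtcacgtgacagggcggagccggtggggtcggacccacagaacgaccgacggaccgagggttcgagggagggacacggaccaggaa
RAB25: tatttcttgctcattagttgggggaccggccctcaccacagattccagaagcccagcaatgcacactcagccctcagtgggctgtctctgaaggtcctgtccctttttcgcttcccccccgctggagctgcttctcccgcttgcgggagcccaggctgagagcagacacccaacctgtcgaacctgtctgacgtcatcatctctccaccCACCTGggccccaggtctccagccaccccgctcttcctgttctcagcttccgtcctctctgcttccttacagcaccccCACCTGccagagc

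Of 48 measured mesenchymal genes, 16 were bright (33.3%, against 9.46% of all genes) and 8 near background (16.7%, against 34.5%), and 35 exceeded every olfactory receptor row. LGALS1, which encodes a galectin, read 13.54 and 13.62. The actin crosslinker ACTN1 read 13.21 and 13.20, and VIM, the intermediate filament vimentin, 13.19 and 13.18. THBS1, a matrix glycoprotein, read 13.11 and 13.20, and MSN, which links membrane and actin, 12.83 and 12.91. CD44, the hyaluronan receptor, read 13.35 and 13.31, while CD24, whose low level together with high CD44 marks breast progenitor-like cells, read 7.94 and 7.62. The transcription factors of the epithelial-mesenchymal transition were unequal. SNAI2 was bright at 11.89 and 11.84, ZEB1 reached 9.99 and 9.99, TWIST1 8.14 and 8.00, and SNAI1 7.67 and 7.52. The rows of ZEB2, named after its values were seen, disagreed, with a mean of 8.06 on the brighter and 5.44 on the dimmer one. CDH2, the N-cadherin gene often taken as the mesenchymal counterpart of CDH1, was near background at 6.68 and 6.80. CDH11 (6.53 and 6.47), PRRX1 (6.45 and 6.65), S100A4 (6.79 and 6.96) and THY1 (7.03 and 6.91) were near background as well.

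**Figure D3:**
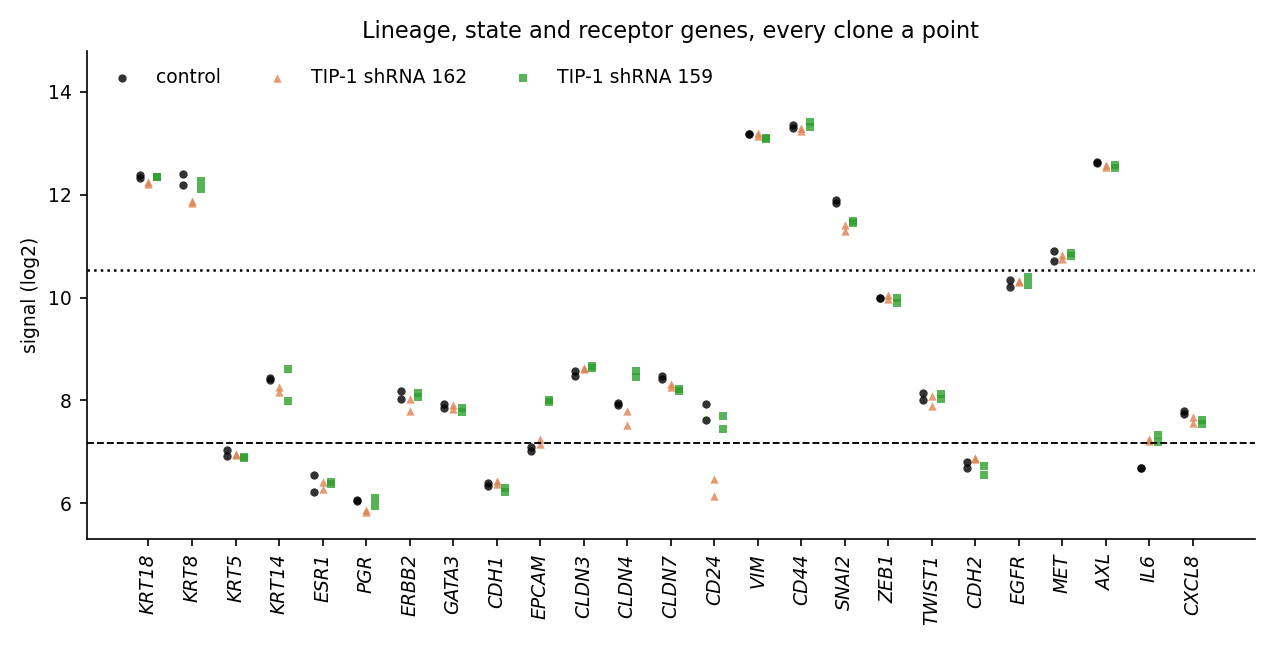
Log2 signal (vertical axis) of lineage, state, receptor and cytokine genes (horizontal axis), 1 point per clone, with control in black, shRNA 162 as triangles and shRNA 159 as squares; the dashed line is the near-background limit and the dotted line the bright limit. In the control clones KRT18, KRT8, VIM, CD44, SNAI2, MET and AXL lie above the dotted line, and KRT5, ESR1, PGR, CDH1, EPCAM, CDH2 and IL6 below the dashed one.

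MicroRNAs that act on the same switch were read on the rows of their genes. The miR-200 family represses ZEB1 and ZEB2, as background, and its members fall into 2 seed groups. Whether such a row reads any of the mature form besides the precursor is not known here. A dim row therefore does not show that the mature microRNA is scarce. Of 173 microRNA genes with a row, 0 were bright, 34 lay in the middle and 139 were near background. Of all genes, 9.46% were bright and 34.5% near background. MIR200A read 4.97 and 4.97, MIR141 4.95 and 5.13, MIR200C 6.16 and 6.33, MIR429 6.50 and 6.70, and MIR200B 7.45 and 7.48. Only MIR200B of these 5 was above the near-background limit, and it lay below the highest olfactory receptor row. MIR221 read 7.16 and 7.20 and MIR222 5.44 and 5.62. These genes were chosen from background knowledge with their values known. The mature sequences from RefSeq are shown for the shared seeds, bases 2 to 8 in capitals: miR-200a and miR-141 share AACACUG, the other 3 family members share AAUACUG, and miR-221 and miR-222 share GCUACAU.
hsa-miR-200a-3p: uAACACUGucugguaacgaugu
hsa-miR-141-3p: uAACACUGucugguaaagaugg
hsa-miR-200b-3p: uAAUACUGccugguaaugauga
hsa-miR-200c-3p: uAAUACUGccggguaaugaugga
hsa-miR-429: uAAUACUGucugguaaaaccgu
hsa-miR-221-3p: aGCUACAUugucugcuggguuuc
hsa-miR-222-3p: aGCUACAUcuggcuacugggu

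Among 24 measured integrins, 3 were bright (12.5%) and 13 near background (54.2%), against 9.46% and 34.5% of all genes. ITGB1, the shared beta chain, read 11.60 and 11.56, and the alpha chains ITGA6 and ITGA3, both of laminin receptors, 11.42 and 11.35, and 11.25 and 11.24. ITGAV (10.20 and 10.21) and ITGA5 (9.91 and 9.90) came next. ITGA4, ITGA7, ITGA8, ITGA9 and ITGA10 were near background, with means from 6.06 to 7.17. Of 46 measured matrix proteases and inhibitors, 7 were bright (15.2%) and 17 near background (37.0%). The inhibitor TIMP1 (12.76 and 12.83) was the highest, followed by the lysosomal protease CTSC (12.12 and 12.02), the urokinase receptor PLAUR (11.48 and 11.45), the sheddase ADAM10 (11.32 and 11.28) and the lysosomal protease CTSD (11.02 and 11.09). The secreted metalloproteinases MMP2 (6.93 and 7.03), MMP3 (6.50 and 6.22), MMP7 (5.52 and 5.38) and MMP8 (4.38 and 4.87) were near background.

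Of 50 measured receptor tyrosine kinases, 4 were bright (8.0%, close to the 9.46% of all genes) and 26 near background (52.0%, against 34.5%). AXL, the receptor of GAS6, read 12.62 and 12.63. The Wnt co-receptor RYK read 10.98 and 10.93, the ephrin receptor EPHA2 10.84 and 10.79, and MET, the hepatocyte growth factor receptor, 10.90 and 10.71. Within the EGFR family, EGFR stood at 10.21 and 10.35, ERBB2 at 8.04 and 8.19, ERBB3 at 6.65 and 6.57 and ERBB4 at 6.79 and 6.73, the last pair near background. MST1R (7.07 and 7.16), INSRR (6.66 and 6.93) and FGFR2 (6.55 and 6.74) were near background.

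On the ligand side 1 of 49 measured genes was bright (2.04%) and 20 were near background (40.8%), against 9.46% and 34.5% of all genes. HBEGF, a membrane-bound ligand of EGFR, read 11.59 and 11.77. PDGFC (10.32 and 10.48), EFNA5 (10.25 and 10.27), FGF5 (9.74 and 9.90) and MDK (9.61 and 9.65) were the next highest. The other EGFR ligands differed from HBEGF: EGF read 5.79 and 5.95, EREG 7.07 and 7.04, BTC 6.35 and 6.33 and EPGN 5.44 and 5.37, all near background. TGFA, a further EGFR ligand named after its values were seen, read 8.79 and 8.74.

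Among 66 measured G protein-coupled receptors, 5 were bright (7.58%) and 30 near background (45.5%), against 9.46% and 34.5% of all genes. The bright ones were ADGRE5 (11.27 and 11.34), an adhesion receptor known on leukocytes, the adenosine receptor ADORA2B (11.14 and 11.15), the lysophosphatidic acid receptor LPAR1 (10.76 and 10.50), the Wnt receptor FZD2 (10.56 and 10.68) and GPRC5A (10.59 and 10.56). LPAR1 was the one with a clone under the bright limit. The paralogs LPAR3 (6.56 and 6.60), LPAR4 (5.82 and 5.98) and LPAR6 (5.54 and 5.56) were near background, as were S1PR1 (5.97 and 5.83) and S1PR4 (6.64 and 6.81).

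None of the 39 measured nuclear receptors was bright, and 16 were near background (41.0%), against 9.46% and 34.5% of all genes. PPARG, a fatty acid sensor, was the highest at 10.06 and 10.01, followed by NR2C2 (9.91 and 9.89), NR1D2 (9.43 and 9.40), PPARD (9.35 and 9.42) and NR2F1 (9.21 and 9.44). ESR2, the second estrogen receptor gene, read 6.39 and 6.49. NR3C2, the mineralocorticoid receptor gene, read 6.32 and 6.14 and RXRG 5.67 and 5.84.

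Cytokine genes were near background more often than all genes. Of 87 measured cytokines and chemokines, 57 were near background (65.5%, against 34.5% of all genes) and 1 was bright. That one was TGFB2, at 11.91 and 11.92. IL11, a bone-active cytokine of the IL-6 family, followed at 9.96 and 9.98, then TGFB1 (9.61 and 9.64), LIF (9.24 and 9.41) and CSF3 (9.22 and 9.26). IL6 itself was near background at 6.68 and 6.69. CXCL8, the neutrophil chemokine interleukin 8, read 7.74 and 7.79, under the highest olfactory receptor row. IL1A (6.37 and 6.10), IL1B (7.04 and 6.98), IL1RN (6.05 and 5.99), IL2 (4.14 and 4.20) and IL3 (6.85 and 6.82) were near background.

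Cytokine promoters held the motif TATAAA in 24 of 65 cases (36.9%), against 12.0% of all promoters. TGFB2 (chr1:218345086-218345385, plus strand) and CXCL8 (chr4:73740319-73740618, plus strand) are shown because they carry this motif once each, in capitals, and lie in different bands. They were chosen after their matches were seen.
TGFB2: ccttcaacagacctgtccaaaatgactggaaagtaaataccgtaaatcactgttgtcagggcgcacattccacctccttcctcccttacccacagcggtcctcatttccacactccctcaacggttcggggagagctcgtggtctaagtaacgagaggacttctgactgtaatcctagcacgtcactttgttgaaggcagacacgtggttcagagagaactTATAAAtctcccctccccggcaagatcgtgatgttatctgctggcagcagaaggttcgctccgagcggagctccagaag
CXCL8: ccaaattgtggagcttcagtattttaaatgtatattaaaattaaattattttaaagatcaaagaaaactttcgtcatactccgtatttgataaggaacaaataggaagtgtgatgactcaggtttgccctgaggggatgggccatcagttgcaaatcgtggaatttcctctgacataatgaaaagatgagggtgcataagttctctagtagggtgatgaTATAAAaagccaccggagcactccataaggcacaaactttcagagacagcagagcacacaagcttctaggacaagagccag

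The receptors of the cytokines were less dim than the ligands, with 4 of 67 bright (5.97%) and 26 near background (38.8%). The shares of all genes were 9.46% and 34.5%. TNFRSF12A, the receptor of TWEAK, read 12.17 and 12.27. ENG, a co-receptor for TGF-beta, read 11.29 and 11.27, IL13RA1 11.03 and 10.85, and IL7R 10.67 and 10.53. IL6ST, the signal-transducing chain shared by IL-6, IL-11 and LIF, stood at 10.52 and 10.32. IL1R1 (5.15 and 5.26), IL1R2 (6.34 and 6.74), IL1RL1 (5.47 and 5.33), IL2RA (6.30 and 6.60) and IL2RG (6.50 and 6.62) were near background. The difference between ligands and receptors is a description of these lists, without a test.

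**Figure D4:**
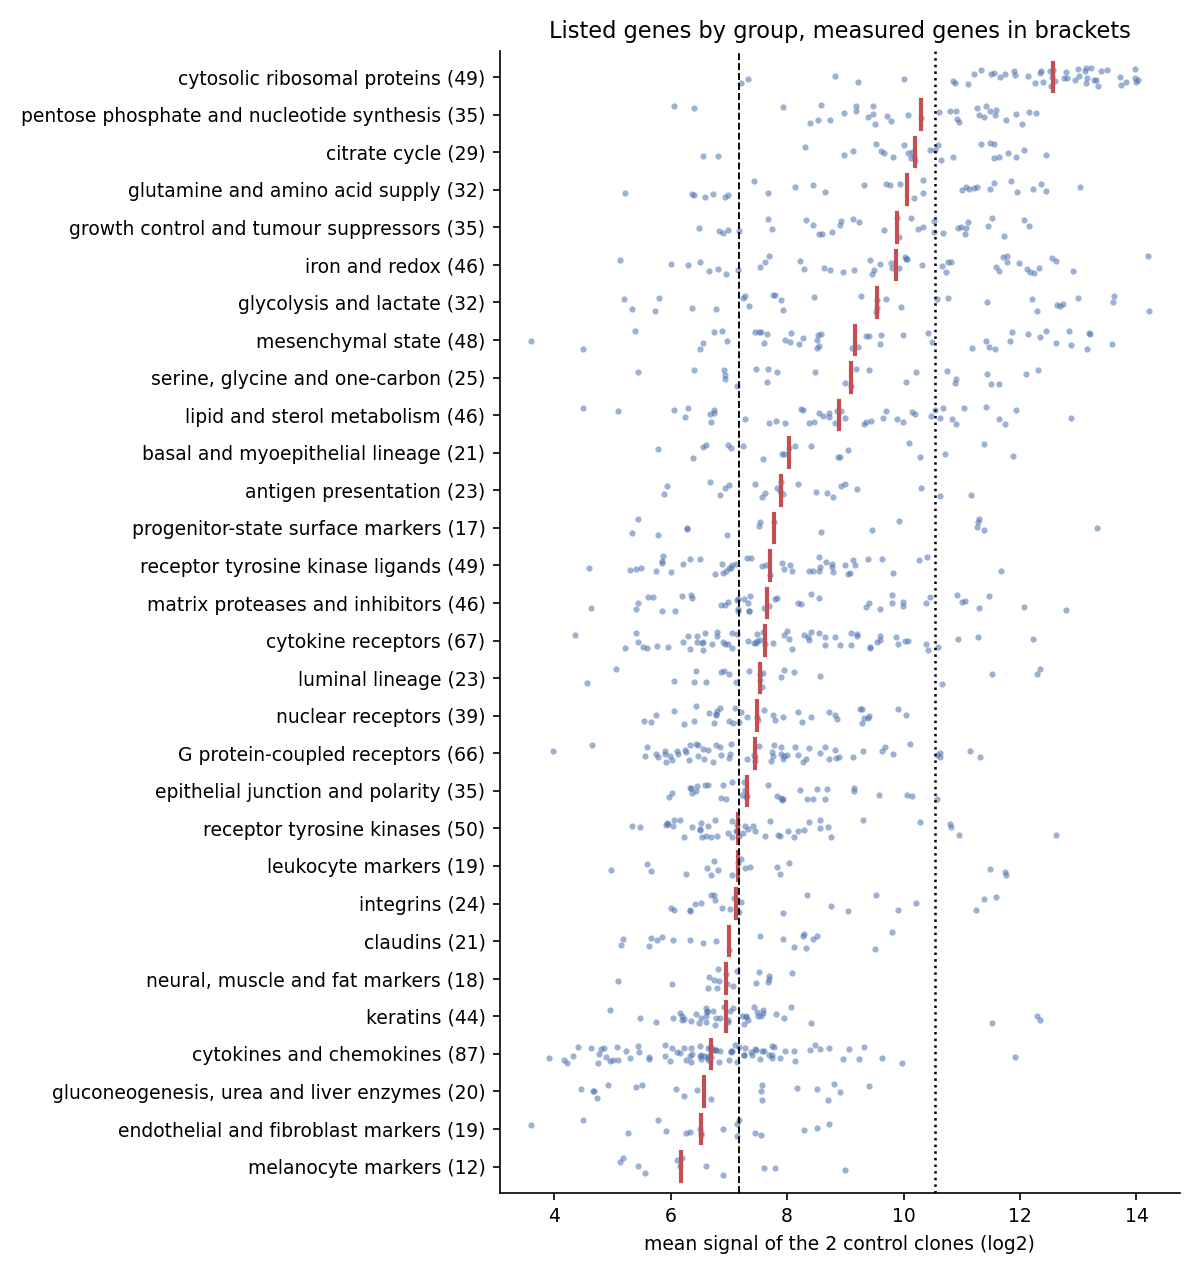
Mean log2 signal of both control clones (horizontal axis) for the measured genes of 30 lists (rows, with the number of genes), 1 point per gene, red bars marking each list's median, dashed and dotted lines the near-background and bright limits. Ribosomal, nucleotide and citrate cycle genes have the highest medians (12.56, 10.29 and 10.20), and melanocyte, endothelial and fibroblast, and liver enzyme genes the lowest (6.18, 6.53 and 6.57).

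Of 32 measured genes of glycolysis and lactate handling, 12 were bright (37.5%), 14 lay in the middle and 6 were near background (18.8%). Among all genes 9.46% were bright and 34.5% near background. After GAPDH came LDHA, which makes lactate, at 13.63 and 13.59, ENO1 at 13.54 and 13.64, PKM at 13.02 and 12.99 and TPI1 at 12.68 and 12.81. Near-background members included isoforms known from other tissues: the liver glucose carrier SLC2A2 (5.33 and 5.34), the hexokinase HK3 (6.73 and 6.82), PFKFB1 (5.84 and 5.77), the sperm enzyme GAPDHS (6.34 and 6.39) and the testis enzyme PGK2 (5.66 and 5.81). Of 20 gluconeogenic, urea cycle and liver enzymes, 0 were bright and 11 near background (55.0%), including PCK1 (6.66 and 6.72), FBP2 (6.09 and 6.11), OTC (4.70 and 4.63), ARG1 (4.36 and 4.57) and TAT (6.33 and 6.57). FBP1, a gluconeogenic enzyme, was the highest of that list at 9.45 and 9.36.

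Mitochondrial and biosynthetic enzymes were often bright. Of 29 measured citrate cycle genes, 13 were bright (44.8%) and 2 near background (6.90%), against 9.46% and 34.5% of all genes. MDH2 (12.44 and 12.46), SDHC (12.02 and 12.12), IDH3A (11.98 and 11.88), SDHD (11.79 and 11.82) and SUCLG1 (11.65 and 11.62) led. The 2 near-background genes were the testis form PDHA2 (6.75 and 6.88) and PDK4 (6.53 and 6.59), a kinase that inhibits pyruvate dehydrogenase. In the pentose phosphate and nucleotide list, 17 of 35 were bright (48.6%), with TYMS (12.25 and 12.30), RRM1 (12.15 and 12.16), TKT (11.94 and 12.11), TALDO1 (11.90 and 11.98) and ATIC (11.77 and 11.75) at the top. The transketolase paralogs TKTL1 (6.42 and 6.39) and TKTL2 (5.96 and 6.16) were its 2 near-background members.

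Serine and one-carbon genes showed 8 of 25 bright (32.0%) and 6 near background (24.0%), against 9.46% and 34.5% of all genes. MAT2A, which makes S-adenosylmethionine, read 12.33 and 12.31, and mitochondrial SHMT2 12.12 and 12.07. SLC25A32 (11.64 and 11.64), AHCY (11.44 and 11.55) and MTHFD2 (11.41 and 11.47) followed. PHGDH, the first enzyme of serine synthesis from glucose, read 10.19 and 10.24, in the middle band at the 87.6th percentile of genes. MAT1A (6.86 and 6.99), AMT (6.91 and 6.95), ALDH1L2 (5.49 and 5.37), ALDH1L1 (7.04 and 7.24) and MTHFD2L (6.95 and 6.89) were near background.

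In amino acid supply, 13 of 32 were bright (40.6%) and 7 near background (21.9%), against 9.46% and 34.5% of all genes. GOT2, the mitochondrial aspartate aminotransferase, read 13.02 and 13.05, the polyamine enzyme SRM 12.43 and 12.47, the transporters SLC7A5 and SLC38A1 12.33 and 12.40, and 12.27 and 12.17, and SLC3A2, the heavy chain that pairs with SLC7A5, 11.95 and 11.94. PRODH, the first enzyme of proline breakdown, was near background at 6.53 and 6.66. Of 46 lipid and sterol genes, 11 were bright (23.9%) and 9 near background (19.6%). Fatty acid elongation and desaturation genes led, with ELOVL5 at 12.85 and 12.90, FADS1 at 11.94 and 11.94, ELOVL1 at 11.76 and 11.73 and FADS2 at 11.70 and 11.57, followed by ACLY at 11.40 and 11.45. The fatty acid uptake genes CD36 (4.57 and 4.43), FABP3 (6.36 and 6.11), FABP4 (5.08 and 5.13) and FABP7 (6.10 and 6.01) were near background, as was the elongase ELOVL2 (6.22 and 6.36).

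Iron and redox genes had 18 of 46 bright (39.1%) and 8 near background (17.4%), against 9.46% and 34.5% of all genes. Beside MT2A, these were led by the ferritin light chain FTL (12.93 and 12.89), the peroxiredoxin PRDX1 (12.61 and 12.63), the glutathione transferase GSTP1 (12.52 and 12.58) and GPX4 (12.31 and 12.34), which removes lipid peroxides. TF, which encodes the plasma iron carrier transferrin, was near background (6.63 and 6.39). The iron exporter gene SLC40A1 (6.63 and 6.68), GPX2 (6.27 and 6.32), GSTM1 (6.78 and 6.85) and GSTM2 (6.92 and 6.98) were near background too. GSTM1 and GSTM2 are close paralogs, so their probes may share signal.

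Of 35 measured growth control and tumour suppressor genes, 11 were bright (31.4%) and 5 near background (14.3%), against 9.46% and 34.5% of all genes. AURKB (12.07 and 12.23), CDK4 (12.08 and 12.07), AKT1 (11.70 and 11.76), RB1 (11.53 and 11.49) and AURKA (11.55 and 11.37) were the highest, and MYC read 10.88 and 10.98. The cyclin-dependent kinase inhibitor genes CDKN2A (6.92 and 6.88) and CDKN2B (6.79 and 6.86) were near background, together with MYCN (6.50 and 6.47), MYCL (7.07 and 7.28) and CHEK2 (6.95 and 7.00). In antigen presentation 2 of 23 were bright (8.70%) and 6 near background (26.1%). The bright ones were the class I light chain B2M (11.19 and 11.13) and TAPBP (10.57 and 10.67). Near background were, among others, the class II genes HLA-DPA1 (6.95 and 7.06), HLA-DPB1 (6.84 and 6.84) and HLA-DMB (6.64 and 6.71). Of 17 progenitor-state surface markers, 5 were bright (29.4%) and 6 near background (35.3%). Among the latter were PROM1 (5.38 and 5.49), ALDH1A1 (6.24 and 6.33), KIT (5.28 and 5.40) and LGR5 (5.79 and 5.79).

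Markers of other cell types were near background more often than all genes (34.5%), with exceptions. Of 19 measured leukocyte markers, 10 were near background (52.6%) and 3 were bright (15.8%, against 9.46% of all genes). Near background were PTPRC, the pan-leukocyte CD45 gene (5.10 and 4.84), and the T cell genes CD3D (6.72 and 6.89) and CD3E (6.32 and 6.21). So were CD4 (6.81 and 6.69) and the B cell gene MS4A1 (5.76 and 5.42), among others. Yet LAPTM5 (11.75 and 11.76), CD68 (11.65 and 11.83) and LCP1 (11.51 and 11.46), genes best known from blood cells, were bright in both clones. Of 19 endothelial and fibroblast markers, 14 were near background (73.7%) and 0 bright. PECAM1 stood at 6.23 and 6.44, VWF at 6.49 and 6.57 and CDH5 at 7.08 and 7.20. Of 12 measured melanocyte markers, 9 were near background, including MLANA (5.48 and 5.39), PMEL (6.04 and 6.35) and TYR (5.70 and 5.43), while MITF read 9.03 and 8.97. Of 18 neural, muscle and fat markers, 12 were near background (66.7%) and 0 bright. A second reference, 62 taste receptor, keratin-associated protein and defensin genes, had 47 near background (75.8%) and 0 bright. The highest, KRTAP5-1, read 9.42 and 9.53.

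The same genes were read in the shRNA clones, to see how far their values differed from the baseline. Each group was 2 selected clones. Differences between clonal lines and effects of targeting TIP-1 therefore cannot be told apart here. The row of TAX1BP3, shared with its read-through transcript P2RX5-TAX1BP3, read 11.65 and 11.56 in the control clones, 9.85 and 10.01 with shRNA 162, and 10.40 and 10.40 with shRNA 159, and fell in both (limma adjusted p = 4.4e-05 and 0.00034). Both comparisons use the same control clones and are therefore not independent. Of all 21214 annotated rows, 5.88% rose and 3.64% fell with shRNA 162 at a Benjamini-Hochberg adjusted p under 0.05 by limma, or 1247 and 772 rows. With shRNA 159, 1.69% rose and 0.839% fell, or 359 and 178 rows. After quantile normalization the shRNA 162 rows split into 1078 higher and 1074 lower. Leaving out 1 clone gave fewer calls: for shRNA 162, 526 without control 1, 636 without control 2, 697 without its own clone 1 and 570 without its own clone 2, and for shRNA 159, 182 without control 1, 142 without control 2 and 247 without its own clone 1.

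Of the 1089 listed genes, 66 rose (6.06%) and 82 fell (7.53%) with shRNA 162, and 19 rose (1.74%) and 24 fell (2.20%) with shRNA 159. Of the 48 mesenchymal genes, 12 fell and 2 rose with shRNA 162, and 4 fell and 2 rose with shRNA 159. Of the 46 matrix proteases and inhibitors, 11 fell and 1 rose with shRNA 162, and 5 fell and 2 rose with shRNA 159. Of all annotated rows, 3.64% fell and 5.88% rose with shRNA 162, and 0.839% fell and 1.69% rose with shRNA 159. Calls also depended on signal: with shRNA 162, 146 of 1743 bright, 502 of 10321 middle and 59 of 6353 near-background genes fell. Whether either list differs from genes of like signal was not tested. Among the bright mesenchymal genes, FN1, the fibronectin gene, fell from 11.55 and 11.58 to 10.89 and 10.82 with shRNA 162 (limma adjusted p = 0.0022), and FSTL1, which encodes a secreted glycoprotein, from 11.45 and 11.38 to 10.59 and 10.62 (limma adjusted p = 0.00077). ACTN1, the matricellular gene CCN2 and the myosin light chain gene MYL9 fell there too (limma adjusted p = 0.0061, 0.0052 and 0.0054). None of these 5 passed with shRNA 159, and FN1, FSTL1, CCN2 and MYL9 were named after their values were seen. VIM, ESR1 and CDH1 did not pass with either hairpin. VIM read 13.19 and 13.14 with shRNA 162 and 13.11 and 13.08 with shRNA 159. ESR1 read 6.27 and 6.42, then 6.42 and 6.37, and CDH1 6.37 and 6.42, then 6.22 and 6.29. SNAI2 fell with both hairpins, to 11.29 and 11.41 (change -0.52 ± 0.08 SE, limma adjusted p = 0.0066) and to 11.45 and 11.50 (-0.39 ± 0.08 SE, adjusted p = 0.044), and stayed in the bright band. EPCAM rose with shRNA 159, to 7.97 and 8.02 (limma adjusted p = 0.00086), and did not pass with shRNA 162, at 7.16 and 7.25. CLDN4 also rose with shRNA 159, to 8.57 and 8.45 (0.58 ± 0.10 SE, limma adjusted p = 0.023). SNAI1 rose with shRNA 159, to 8.54 and 8.27 (limma adjusted p = 0.0073), and did not pass with shRNA 162, at 7.91 and 8.05. KRT8 fell with shRNA 162, to 11.84 and 11.88 (limma adjusted p = 0.027), and MYC rose, to 11.57 and 11.48 (limma adjusted p = 0.0043). Neither passed with shRNA 159, where KRT8 read 12.26 and 12.11 and MYC 11.24 and 11.16. IL6 rose with both, to 7.25 and 7.20, and to 7.33 and 7.20 (limma adjusted p = 0.0059 and 0.0079), close to the near-background limit on all 4 arrays. MIR221 rose as well, to 7.59 and 7.64, and to 8.01 and 7.85 (limma adjusted p = 0.015 and 0.0031). Whether the effects of the hairpins differ was not tested here.

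Changes of at least 1 log2 unit were found for 18 listed genes. Where either side lay near background the signal there is only a bound on the transcript, so no exact size is given. PHGDH fell from the middle band to 6.59 and 6.68 with shRNA 162, below the near-background limit (limma adjusted p = 2.3e-07), and read 9.88 and 9.86 with shRNA 159, which did not pass. ACTG2 fell from its bright level to 9.06 and 8.86 with shRNA 162 (-2.93 ± 0.09 SE, limma adjusted p = 3.0e-06) and read 12.01 and 11.98 with shRNA 159. LCP1, one of the bright blood-cell genes, fell with both, to 9.10 and 9.18, and to 10.18 and 10.16 (limma adjusted p = 3.7e-06 and 0.00011). The cytidine deaminase CDA, at 10.32 and 10.27 in the control clones, fell to 8.36 and 8.47, and to 9.16 and 9.20 (limma adjusted p = 1.7e-05 and 0.00037). F2RL2, a thrombin receptor at 9.02 and 8.76, fell to 6.95 and 7.11, and to 7.33 and 7.17 (limma adjusted p = 0.00010 and 0.00030). CDK6, a cell cycle kinase at 9.68 and 9.65, rose to 10.85 and 10.92, and to 11.10 and 10.84 (limma adjusted p = 0.00043 and 0.00051).

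In the comparison with shRNA 162, GRPR (6.39 and 6.48 in the control clones, 8.60 and 8.57 with the hairpin), CDH11 (to 8.52 and 8.30), IL1A (to 7.39 and 7.58), NRG1 (from 8.61 and 8.73 to 9.89 and 9.96) and TNFRSF10A (from 7.42 and 7.54 to 8.60 and 8.60) rose by at least 1 log2 unit. CD24 (to 6.14 and 6.48), CLDN11 (from 9.47 and 9.55 to 8.16 and 8.14), ADGRG1 (from 9.69 and 9.67 to 8.29 and 8.42), CD40 (from 8.64 and 8.64 to 7.60 and 7.54), GPX3 (from 8.25 and 8.19 to 7.10 and 7.19) and IL2RB (from 8.87 and 8.93 to 7.76 and 8.00) fell by as much. The limma adjusted p of these 11 genes ran from 1.7e-05 for GRPR to 0.0010 for CD24. In the comparison with shRNA 159, CD274, the gene of PD-L1, rose from 8.81 and 8.78 to 9.91 and 9.79 (limma adjusted p = 0.00070). GRPR also rose with shRNA 159, to 7.29 and 7.12.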

How the data were processed

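Total RNA of 6 MDA-MB-231 clones, 2 per group, was measured on Affymetrix Human Gene ST arrays. The authors deposited log2 signals per probe set, processed with the Affymetrix Exon Array Computational Tool per the series' design text; its settings are not stated in the labels or headers, and a base of 2 for the log was taken from values that run from 2.29 to 14.65. Values were used unchanged. Symbols were read from a probe annotation of the platform: 19460 rows carried 1 symbol, 1754 several and 12083 none. Rows with several symbols named no gene, except that of TAX1BP3. Arrays have no count depth and no detection calls were used, so the number of arrays limits the precision.

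Bands were set on the mean of both control clones. Changes were fitted with limma 3.58.1 in R 4.3.3 over all 21214 annotated rows and 3 groups (3 residual and 5.31 prior degrees of freedom, two-sided, Benjamini-Hochberg adjusted). The fit was tested on simulated data first.

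The members, the 31 gene lists (1226 genes, of which 1089 had a row of their own) and the naming rule were chosen with earlier results of these data known. That rule took the 20 brightest protein-coding genes, the 5 brightest and up to 5 near-background genes of each list, a fixed set of marker genes, and listed genes that passed with a change of at least 1 log2 unit; others are marked where they are named. Genes that the lists hold without a row of their own were not analysed here. Plots were made in Python 3.11.15 with matplotlib 3.10.9.

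Alternatives were other limits, other reference genes, quantile normalization, other choices of rows, a variance trend, a replicate block and leaving out each array. Taking the highest olfactory receptor row as the limit was added after seeing the data.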

Additional observations from a re-analysis of the deposited data

Results flagged for a closer look

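A signal was present in rows that the ranking of genes left out. Of the 12083 rows without a gene symbol, 1365 (11.3%) had a control mean at or above the bright limit and 3158 exceeded every olfactory receptor row. Their median was 6.38 and their highest mean was 14.65. They were not used in any comparison of genes.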

How the results depend on the processing

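The number of near-background genes, 6353, ranged from 4696 with the 75th percentile of the olfactory receptor rows as limit to 8844 with the second reference list, and was 9253 with the highest olfactory receptor row. It was 6586 without control replicate 1 and 6291 without control replicate 2. The number of bright genes, 1743, was 812 with the highest 5% of rows and 3613 with the highest 20%, as the setting itself fixes, and 1744 without either control replicate. Of 1089 listed genes, 685 kept their band in all 11 alternatives other than the added one, and 1054 kept it in either clone alone, after quantile normalization, with rows of 1 symbol and with identical rows counted once. With the highest olfactory receptor row as limit, 150 listed genes moved from the middle to the near-background band. Rows called for shRNA 162 (2019) were 691 when all rows of the table were tested and 3482 with a variance trend, and 526 to 697 without 1 clone. Rows called for shRNA 159 (537) were 872 with dim rows left out, 111 when all rows were tested and 1137 with a variance trend, and 142 to 512 without 1 clone. With the replicate number as a block the counts were 2128 and 584. Deviations of same-numbered clones correlated at -0.05, 0.26 and -0.03 between pairs of groups. These values do not settle whether same-numbered arrays share a batch. All 220 alternative values of the listed genes that changed by at least 1 log2 unit kept their direction. These genes were chosen for passing on the same arrays, so this agreement was largely fixed in advance.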

Other observations

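Near-background genes were also placed along the chromosomes by RefSeq coordinates (GRCh38.p14, 16903 protein-coding genes), which was done after the values were seen. On chromosome 9, 17 consecutive measured genes from FOCAD to CDKN2B (chr9:20655625-22009313) were all near background in the control clones. Runs of this length or longer numbered 7 of 2912, and 3 of the others start or end with an olfactory receptor gene. Beside the interferon genes of the run, which are rarely transcribed without a stimulus, it held HACD4, a fatty acid elongation enzyme gene, at 4.10 and 4.15, KLHL9 at 5.60 and 5.66, and MTAP, a gene of methionine salvage, at 5.64 and 5.72. MTAP read between 5.66 and 5.86 on the 4 shRNA arrays. The flanking genes MLLT3 (7.58 and 7.50) and DMRTA1 (7.98 and 7.94) were in the middle band. MLLT3 lay below the highest olfactory receptor row, at 7.89, and DMRTA1 lay close to it. Further out, ACER2 (6.35 and 6.42) and SLC24A2 (6.11 and 6.01) on one side and ELAVL2 (4.69 and 4.66) on the other were near background again. RPS6, beyond ACER2, read 12.62 and 12.60.

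Among microRNA genes, those with the highest rows in the control clones were MIR326 (9.89 and 10.11) and MIR339 (9.36 and 9.50). MIR21, known as abundant in many carcinoma lines, read 6.85 and 7.24, and MIR31, which lies within the chromosome 9 run, read 6.06 and 6.15.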
